A study of Homo sapiens with 24 samples.

Results

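The BCL2 family regulates apoptosis at the outer mitochondrial membrane. Pro-survival proteins hold the pore-forming effectors BAX and BAK1 in check, BH3-only proteins bind the pro-survival proteins or activate the effectors, and active effectors release cytochrome c, which switches on the caspases. Cancer cells often depend on one pro-survival protein, and RNA is only one layer of the control, since MCL1 and NOXA (the product of PMAIP1) are short-lived proteins and BID and BCL2L11 are also regulated after translation. The 10 genes described here were chosen by symbol from the 28307 genes counted. They are 4 pro-survival genes (BCL2, BCL2L1, BCL2L2 and MCL1), 4 BH3-only genes (BCL2L11, which encodes BIM, BBC3, which encodes PUMA, PMAIP1 and BID) and 2 effectors (BAX and BAK1), so that 6 of the 10 are pro-death. All 10 passed the filter on low counts in both lines.

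RNA was sequenced from cells of the breast cancer line SUM159 and the colon cancer line SW620. Adherent cultures were kept for 30 h under Nifuroxazide (NIF), a nitrofuran antibiotic that is also used as an inhibitor of STAT3 signalling, or under DMSO, its solvent, and were then sorted into cells with high (ALDHbr) and low (ALDHneg) aldehyde dehydrogenase activity by the ALDEFLUOR assay. This gave 8 groups, ALDHbr NIF, ALDHbr DMSO, ALDHneg NIF and ALDHneg DMSO cells of each line, with 3 libraries per group from independent experiments and 24 libraries in all. The ALDHbr fraction is described by the study as enriched in cancer stem cells, and each line stands for its tumour type alone, so line and tissue of origin cannot be told apart. In bulk RNA from sorted cells, fewer cells of a type and less RNA per cell cannot be told apart either. ALDH1A1, an enzyme behind the assay, stood at 135 ± 27.7 CPM in SUM159 ALDHbr cells and 0.480 ± 0.0618 CPM in ALDHneg cells under DMSO (CPM, read counts scaled to a common library total, mean ± SD, n = 3 each), and at 1314 ± 51.3 and 901 ± 19.3 CPM in SW620. Under NIF it stood at 955 ± 31.8 and 549 ± 13.4 CPM in the SW620 populations, both lower than under DMSO (adjusted p = 3.1e-06 and 3.64e-08), and the part of this in the members' values was not tested.

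The libraries held 30253187 to 43127948 counts, with a median of 36520935. The mean log2 CPM of 10 mesenchymal markers was 8.63 to 9.07 in the SUM159 libraries and -0.12 to 0.60 in the SW620 libraries. That of 10 colon epithelial markers was -1.51 to 0.05 and 5.19 to 6.21, as the line labels have it. One library stood apart. The second SW620 ALDHbr DMSO replicate gave a chi-square per gene of 46.1 and 35.9 against its partners, which differed from each other by 6.52, and the other pairs ran from 1.97 to 30.1. Without it the genes called between SW620 ALDHbr and ALDHneg cells under DMSO went from 1577 to 5487, so member results that change without it are given both ways. CPM values are scaled within a line by TMM factors, and a gene was called where the edgeR quasi-likelihood test, adjusted over all genes of the fit, gave an adjusted p below 0.05. Standard errors (SE) and intervals of log2 fold changes come from the same fit.

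The genes lie on 8 chromosomes of GRCh38.p14 as annotated by RefSeq. Pro-survival genes are BCL2 at chr18:63123346-63320090, BCL2L1 at chr20:31664452-31723963, BCL2L2 at chr14:23306833-23311751 and MCL1 at chr1:150574558-150579610. BH3-only genes are BCL2L11 at chr2:111120914-111168445, BBC3 at chr19:47220824-47232860, PMAIP1 at chr18:59899996-59904305 and BID at chr22:17734138-17774665. The effectors are BAX at chr19:48954875-48961798 and BAK1 at chr6:33572552-33580276. RefSeq start-site windows (250 bases before the start and 50 from it) were matched by symbol for 8 of the 10 genes, as 13 windows because BID has several start sites and BCL2L1 a pair. MCL1 and BCL2L2 were not matched. The 250 bases before the start of PMAIP1 and BBC3 are printed because both rose under NIF in SW620, and those of BAX as an effector that was not called there. The BBC3 window belongs to a start inside the gene's span, which reaches 47232860 on the minus strand. Most of its printed bases therefore lie within the annotated gene. Capitals mark the E-box CACGTG, the ATF/CREB core TGACGT, the AP-1 site TGANTCA and the CCAAT box, each read on both strands, so that TGACGT can appear as its reverse complement.
PMAIP1 (chr18:59899746-59899995, plus strand): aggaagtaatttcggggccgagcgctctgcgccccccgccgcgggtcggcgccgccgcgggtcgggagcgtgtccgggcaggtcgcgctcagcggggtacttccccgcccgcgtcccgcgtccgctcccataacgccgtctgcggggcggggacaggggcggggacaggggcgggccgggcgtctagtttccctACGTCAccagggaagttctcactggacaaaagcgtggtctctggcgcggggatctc
BBC3 (chr19:47232668-47232917, minus strand): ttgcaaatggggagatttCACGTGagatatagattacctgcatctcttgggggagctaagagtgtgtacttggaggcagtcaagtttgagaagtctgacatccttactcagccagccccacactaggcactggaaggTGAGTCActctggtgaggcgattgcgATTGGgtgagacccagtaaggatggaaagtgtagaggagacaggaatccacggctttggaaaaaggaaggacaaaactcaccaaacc
BAX (chr19:48954625-48954874, plus strand): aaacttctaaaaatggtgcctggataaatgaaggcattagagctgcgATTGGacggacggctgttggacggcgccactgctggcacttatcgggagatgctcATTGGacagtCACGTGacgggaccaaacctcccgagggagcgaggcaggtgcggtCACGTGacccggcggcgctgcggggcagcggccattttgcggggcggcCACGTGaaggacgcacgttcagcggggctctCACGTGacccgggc

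PMAIP1 carried the only ATF/CREB core among the members, with its first base 56 bases before the start (position -56), a core that 7.98% of 35116 windows of the same length hold. BAX had 4 E-boxes, at -138, -93, -45 and -14, BBC3 had 1, at -232, and BID had 1 site, which lies in 2 of its overlapping windows, while 7.26% of all windows hold this motif. BBC3 was the only member with an AP-1 site, at -113 (7.71% of all windows). Counted from the start inside the gene, this site lies within the annotated span of BBC3. The CCAAT box, in 34.6% of all windows, was found for BCL2L11, BAK1, BBC3 and BAX. The STAT motif TTCNNNGAA, in 7.66% of all windows, and the CHOP/ATF4 composite TGATGNAA, in 3.62%, were in none of the 13 member windows. A match describes the letters only, and no match says nothing about a factor.

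Levels were first compared between genes as CPM per kb of the canonical transcript. In SUM159 ALDHbr cells under DMSO the order was MCL1 at 183 ± 13.2, BAX at 121 ± 8.14 and BCL2L1 at 107 ± 2.51 CPM per kb (SD, n = 3), then BAK1 at 30.5 ± 2.06 and BID at 28.5 ± 0.250, which differed by less than the SD of BAK1. BCL2L2 followed at 12.8 ± 1.02, and the remaining 4, PMAIP1, BBC3, BCL2L11 and BCL2, lay between 5.29 and 1.60. In SW620 ALDHbr cells under DMSO the effector BAX was at 196 ± 23.1, BCL2L1 at 152 ± 6.81 and MCL1 at 74.2 ± 3.87 CPM per kb. BID followed, then BAK1 at 18.5 ± 0.874 and BBC3 at 8.44 ± 0.971. BCL2L2 at 7.81 ± 0.133 was not separated from BBC3, nor PMAIP1 at 4.54 ± 0.455 from BCL2L11 at 4.48 ± 0.259, beyond their spread. BCL2 came last in both lines, at 0.0659 ± 0.0184 in SW620, on 14 to 20 counts per library. In ALDHbr cells under DMSO, MCL1 was thus the highest member in SUM159, and BAX and BCL2L1 stood above it in SW620. In SUM159 ALDHneg cells under DMSO, MCL1 at 128 ± 14.7, BAX at 113 ± 10.8 and BCL2L1 at 111 ± 11.6 CPM per kb were not separated beyond their spread.

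**Figure D1:**
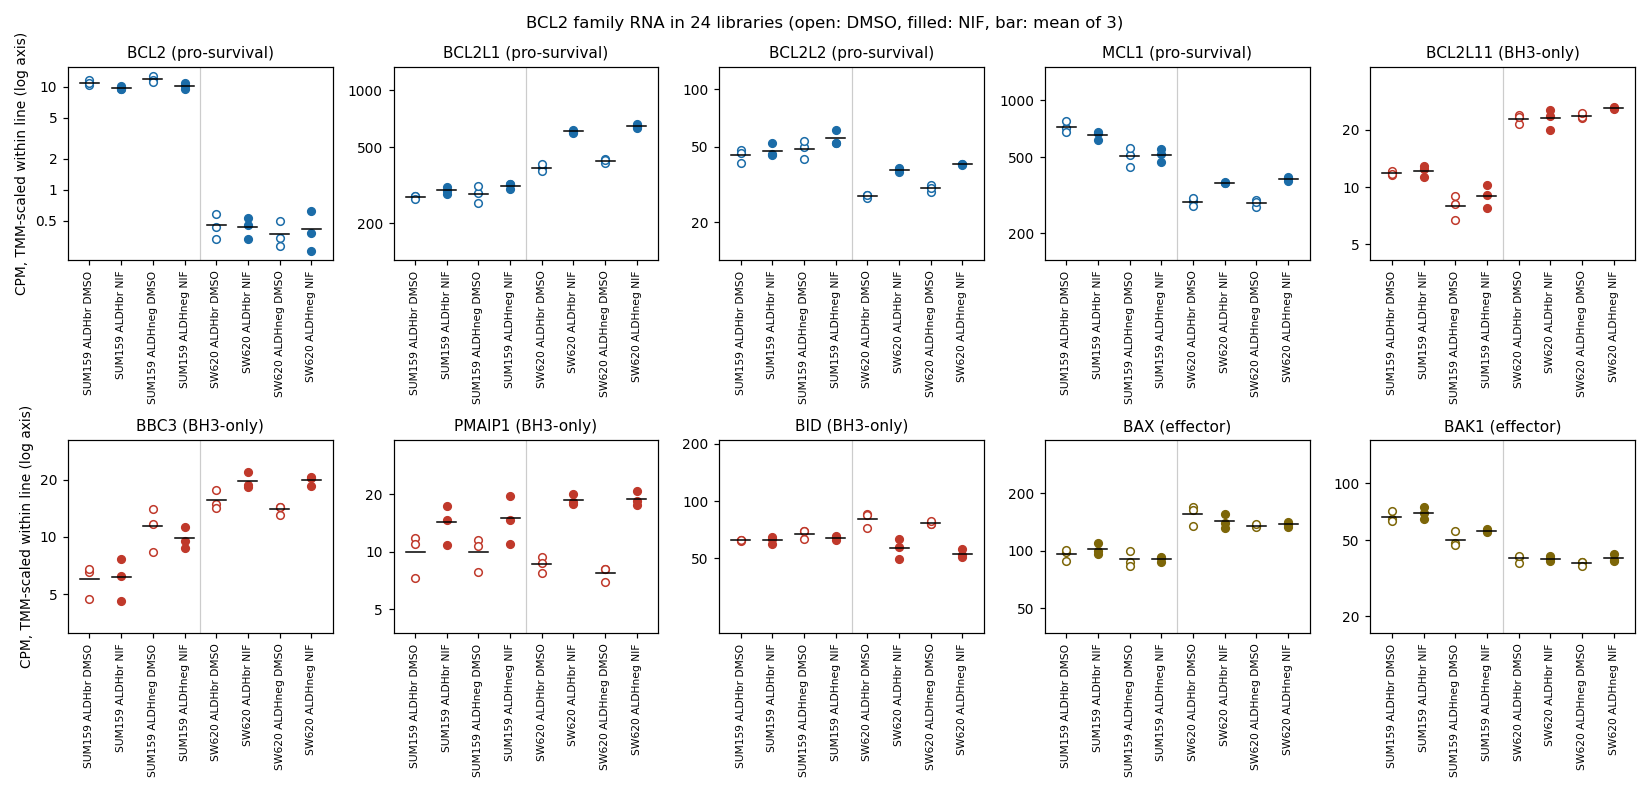
CPM of the 10 BCL2 family genes (log axes, each with its own range) in the 24 libraries by line, population and treatment, with open points for DMSO, filled points for NIF and bars for the mean of 3. PMAIP1, BCL2L1, BCL2L2, MCL1 and BBC3 are higher and BID is lower under NIF in SW620, and BCL2 is at 9.53 to 12.7 CPM in SUM159 and 0.254 to 0.617 CPM in SW620.

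The first question was whether NIF changed the family's RNA. In SW620 ALDHbr cells 3 of 4 pro-survival genes (BCL2L1, BCL2L2 and MCL1) and 2 of 4 BH3-only genes (PMAIP1 and BBC3) were higher under NIF, 1 BH3-only gene (BID) was lower, and neither effector was called. That is 6 of 10 genes, beside 43.3% of all 13953 genes tested, 21.4% called higher and 21.9% called lower, a background against which 6 of 10 is no result about the family by itself. The median log2 fold change was 0.39 over the pro-survival genes, 0.00 over the pro-death genes and -0.01 over all genes. In SW620 ALDHneg cells the same 5 genes were higher and BID was lower, beside 45.1% of all genes (22.3% higher, 22.7% lower, so that 49.5% of the calls were higher, or 39.4% with library-size scaling, which left the members' calls at 5 and 1), and the medians were 0.42, 0.11 and -0.01. Changes on both sides of the family therefore stood side by side, and the plot of NIF effects shows them gene by gene.

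Among the pro-survival genes, BCL2L1 encodes BCL-XL. In SW620 ALDHbr cells it was at 388, 377 and 411 CPM under DMSO and at 605, 597 and 621 CPM under NIF. The groups did not overlap, and the log2 fold change was 0.63 (SE 0.05, adjusted p = 1.32e-07). The share of all genes without such overlap was not counted, here or for the members below. The ALDHneg values went from 436, 416 and 428 to 644, 665 and 636 CPM, a log2 fold change of 0.60 (SE 0.05, adjusted p = 1.65e-07). On the scale per kb, BCL2L1 reached 236 ± 4.69 under NIF in ALDHbr cells, above BAX at 179 ± 16.6 there. In CPM, without the transcript length, BCL2L1 was above BAX under DMSO as well.

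BCL2L2, which encodes BCL-W, was at 27.8, 27.0 and 27.9 CPM under DMSO and 38.7, 38.1 and 36.8 CPM under NIF in SW620 ALDHbr cells, a log2 fold change of 0.46 (SE 0.05, adjusted p = 1.12e-05), and rose by 0.42 (SE 0.05, adjusted p = 2.06e-05) in ALDHneg cells. Reads of a readthrough transcript, BCL2L2-PABPN1, would share its exons, and that gene was at 0 counts in every library. Since the handling of reads shared between genes is unknown, this does not show whether such reads entered the BCL2L2 counts. MCL1, whose protein binds NOXA and BIM, rose by less in the ALDHbr cells, from 294, 308 and 277 to 372, 367 and 365 CPM, a log2 fold change of 0.33 (SE 0.05, adjusted p = 0.00013). In ALDHneg cells MCL1 went from 276, 300 and 292 to 389, 378 and 395 CPM, a log2 fold change of 0.42 (SE 0.05, adjusted p = 1.19e-05). The NIF and DMSO libraries did not overlap for either gene. BCL2 was near the floor of detection in SW620, with 10 to 23 counts per library, and its log2 fold changes of -0.04 (95% interval -0.83 to 0.76) and 0.14 (-0.65 to 0.94) leave a wide range.

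PMAIP1 had the highest fold of the 10 members. In SW620 ALDHbr cells it was at 9.43, 8.74 and 7.71 CPM under DMSO and at 17.8, 18.2 and 20.2 CPM under NIF. The log2 fold change was 1.11 (SE 0.10, adjusted p = 7.54e-07), a 2.16-fold rise. In ALDHneg cells PMAIP1 went from 6.91, 8.11 and 8.13 to 20.9, 17.6 and 18.4 CPM, a log2 fold change of 1.30 (SE 0.10, adjusted p = 1.38e-07) or 2.46-fold. Every NIF library was above every DMSO library, on at least 283 counts per library.

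BBC3, whose product PUMA binds all the pro-survival proteins, rose in both SW620 populations. In SW620 ALDHneg cells it went from 13.1, 14.4 and 14.4 to 20.5, 20.4 and 18.6 CPM, a log2 fold change of 0.50 (SE 0.09, adjusted p = 0.000514). In ALDHbr cells the values were 14.9, 14.2 and 17.6 under DMSO and 18.2, 18.7 and 21.8 CPM under NIF, with a log2 fold change of 0.33 (SE 0.09, adjusted p = 0.0113). This ALDHbr call was lost without NIF replicate 3 (log2 fold change 0.24, adjusted p = 0.0505) and in a fit of all 24 libraries (adjusted p = 0.110). The difference between the populations was itself not called, at -0.18 (95% interval -0.46 to 0.10, adjusted p = 0.955).

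BID, which caspase-8 cleaves to link death receptors to mitochondria, was the only member called lower under NIF in SW620 with all libraries in the fit. In SW620 ALDHbr cells it fell from 85.3, 71.9 and 84.5 to 49.6, 57.1 and 62.8 CPM, a log2 fold change of -0.51 (SE 0.08, adjusted p = 0.000234), and in ALDHneg cells from 75.7, 75.6 and 78.9 to 50.8, 55.9 and 51.9 CPM, a log2 fold change of -0.54 (SE 0.08, adjusted p = 0.000136). The groups did not overlap in either population. BCL2L11 was at 20.0 to 26.2 CPM in all 12 SW620 libraries, with log2 fold changes of 0.01 (95% interval -0.16 to 0.18) in ALDHbr and 0.14 (-0.03 to 0.31) in ALDHneg cells.

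The effectors BAX and BAK1 were not called in SW620. BAX in ALDHneg cells was at 135, 134 and 138 CPM under DMSO and 137, 142 and 134 CPM under NIF, a log2 fold change of 0.02 (95% interval -0.15 to 0.20). In ALDHbr cells BAX was at 169, 135 and 164 CPM under DMSO and 131, 140 and 157 CPM under NIF, a log2 fold change of -0.13 (adjusted p = 0.212). The DMSO value of 135 belongs to the library that stood apart, and without it BAX was called lower (log2 fold change -0.21, adjusted p = 0.00917), which makes 7 members in place of 6. Over all genes in this comparison, fits with single libraries left out called 5053 to 7136, beside 6038 with all libraries. BAK1 lay between 36.7 and 42.6 CPM in the 12 libraries, with log2 fold changes of -0.01 (-0.13 to 0.12) and 0.09 (-0.03 to 0.22).

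**Figure D2:**
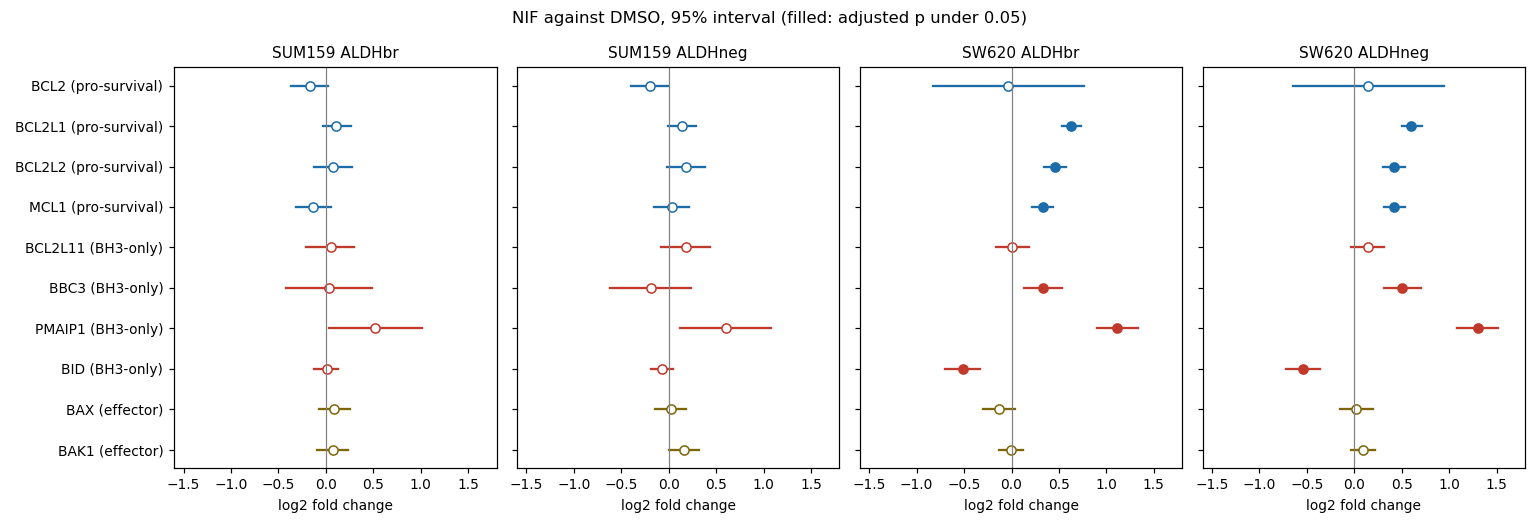
Log2 fold change of each BCL2 family gene, NIF against DMSO, with its 95% interval from the edgeR fit of the line, by line and population (blue pro-survival, red BH3-only, brown effector), filled where the adjusted p was under 0.05. In SW620 the same 5 genes lie above 0 and BID lies at -0.51 and -0.54, whereas no SUM159 point is filled and PMAIP1 stands at 0.52 and 0.60.

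In SUM159 none of the 10 genes was called, in ALDHbr or in ALDHneg cells, beside 3.16% and 3.30% of all 14953 genes. DESeq2 called 0 in both populations, and 1 and 2 members respectively had an unadjusted p under 0.05 in edgeR. The median log2 fold change was -0.03 over the pro-survival and 0.06 over the pro-death genes in ALDHbr cells, and 0.09 over either class in ALDHneg cells. Apart from PMAIP1, the log2 fold changes lay between -0.20 and 0.18, with BCL2 at -0.17 and -0.20 in the respective populations, BCL2L1 at 0.11 and 0.14, and BCL2L2 at 0.08 and 0.18. MCL1 was at -0.14 and 0.03, and BCL2L11 at 0.05 and 0.18. BBC3 was at 0.03 and -0.19, and BID at 0.01 and -0.07. BAX was at 0.09 and 0.02, and BAK1 at 0.07 and 0.16.

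PMAIP1 was the member with the largest value in SUM159 as well. In SUM159 ALDHbr cells it was at 11.8, 11.0 and 7.29 CPM under DMSO and at 17.4, 14.7 and 10.9 CPM under NIF, in the order of the replicate numbers. In ALDHneg cells it was at 11.5, 10.7 and 7.82 CPM under DMSO and at 19.6, 14.6 and 11.0 CPM under NIF. Each NIF library was above the DMSO library of its own number, 3 of 3 in both populations, while NIF replicate 3 lay below DMSO replicate 1, so that the groups overlapped. The log2 fold changes were 0.52 (SE 0.23, adjusted p = 0.263) and 0.60 (SE 0.23, adjusted p = 0.184) without pairing. Such counts were not particular to PMAIP1. In ALDHbr cells BCL2L1 and BAK1 also stood at 3 of 3, and BCL2 and MCL1 at 0 of 3. In ALDHneg cells BCL2L1, BCL2L2 and BCL2L11 stood at 3 of 3, and BCL2 and BID at 0 of 3.

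The replicate numbers paired the SUM159 libraries, since libraries with the same number deviated together (correlation above 0.1 in 12 of 12 pairs of same-numbered libraries). With the replicate block PMAIP1 was called higher in ALDHbr cells (log2 fold change 0.52, SE 0.09, adjusted p = 0.000303) and in ALDHneg cells (0.58, SE 0.09, adjusted p = 8.8e-05). MCL1 was called lower in ALDHbr cells with the block (-0.13, SE 0.04, adjusted p = 0.0428), at 710, 779 and 677 CPM under DMSO and 672, 682 and 618 CPM under NIF. That made 2 of 10 members in ALDHbr and 1 of 10 in ALDHneg cells, beside 13.3% and 13.2% of all genes called with the block.

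**Figure D3:**
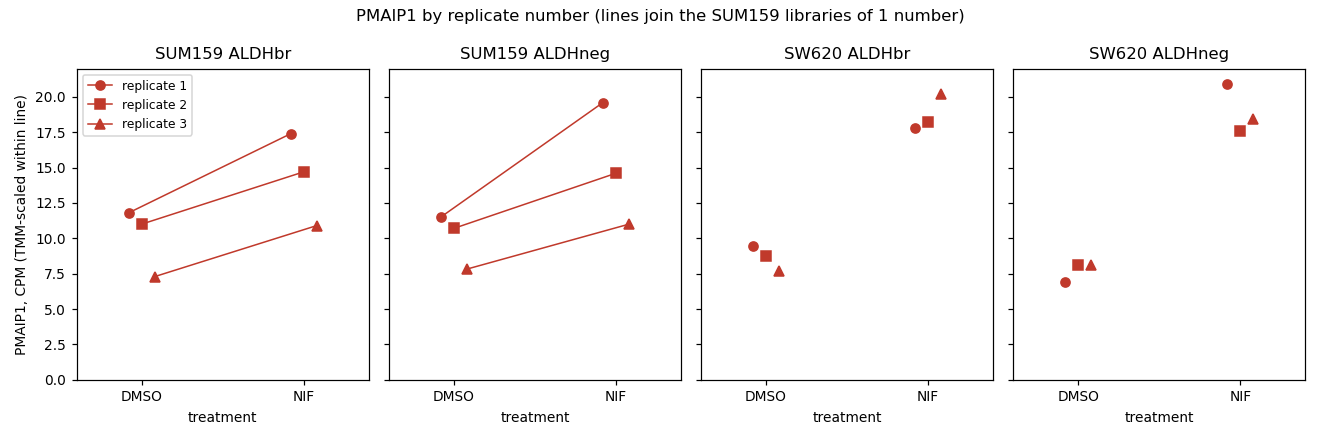
PMAIP1 in CPM (linear axis from 0) under DMSO and NIF in each line and population, with a symbol for each replicate number and lines joining the SUM159 libraries of the same number. The SUM159 lines all rise, from 7.29 to 11.8 CPM under DMSO to 10.9 to 19.6 CPM under NIF, and the SW620 groups lie apart, at 6.91 to 9.43 and 17.6 to 20.9 CPM.

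The NIF effect was then compared between the lines in a fit of all 24 libraries, as the effect in SUM159 minus that in SW620. In ALDHbr cells 4 members differed, beside 23.1% of all 16271 genes, with BCL2L1 at -0.51 (SE 0.09, adjusted p = 0.000136), BCL2L2 at -0.38 (SE 0.11, adjusted p = 0.0153), MCL1 at -0.46 (SE 0.11, adjusted p = 0.00233) and BID at 0.52 (SE 0.11, adjusted p = 0.000701). In ALDHneg cells 4 differed, beside 22.4%, with BCL2L1 at -0.47, MCL1 at -0.40, BBC3 at -0.70 and BID at 0.46. The BBC3 difference (adjusted p = 0.0266) was lost when any of 6 single libraries was left out, namely SUM159 ALDHneg NIF replicate 2 or 3, SUM159 ALDHneg DMSO replicate 1, SW620 ALDHneg NIF replicate 1 or 2, or SW620 ALDHneg DMSO replicate 1 (adjusted p 0.0539 to 0.108). PMAIP1 differed by -0.59 (95% interval -1.15 to -0.03, adjusted p = 0.122) in ALDHbr and -0.70 (-1.26 to -0.15, adjusted p = 0.0641) in ALDHneg cells. With the replicate block, these differences were called (adjusted p = 0.00259 and 0.000378), and that in ALDHneg cells also with DESeq2 (-0.72, adjusted p = 0.0360) and without a filter on low counts (-0.71, adjusted p = 0.0328). PMAIP1 was also called without SUM159 ALDHbr DMSO replicate 3 (-0.79, adjusted p = 0.0349), and in ALDHneg cells without SUM159 NIF replicate 1 (-0.96, adjusted p = 0.00911) or DMSO replicate 3 (-0.86, adjusted p = 0.0259). BCL2L2 in ALDHneg cells, at -0.24 (adjusted p = 0.126), was called without SUM159 NIF replicate 3 or DMSO replicate 1 (-0.33 in both). BAX in ALDHbr cells, at 0.22 (adjusted p = 0.195), was called without the SW620 library that stood apart (0.31, adjusted p = 0.0306).

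Between the ALDHbr and ALDHneg cells the NIF effect was not found to differ for any member. In SUM159 the largest difference was 0.23 for BBC3 (95% interval -0.39 to 0.85), and edgeR called 0 of 14953 genes (0%), none of the 10 members among them, where DESeq2 called 2 genes in all and no member. In SW620 the differences ran from -0.18 to 0.04, beside 0.00717% of all genes called (1 gene, or 29 with DESeq2 and 27 without the library that stood apart, no member among them), and for PMAIP1 the difference was -0.18 (95% interval -0.48 to 0.12). No member had an unadjusted p below 0.05 in either of these comparisons in the edgeR fit without the replicate block. With the block, 6 genes were called in SUM159 and 2 in SW620, no member among them. The MCL1 difference in SUM159 was then -0.16 (SE 0.06, adjusted p = 0.988).

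The second question was how the sorted populations differed. In SUM159 under DMSO, MCL1, BCL2L11 and BAK1 were higher and BBC3 was lower in ALDHbr than in ALDHneg cells, 4 of 10 members beside 23.0% of all genes. MCL1 was at 710, 779 and 677 CPM in ALDHbr and 513, 562 and 447 CPM in ALDHneg cells, with a log2 fold change of 0.51 (SE 0.09, adjusted p = 0.000471). BCL2L11, whose product BIM is bound by MCL1, was at 11.6, 12.1 and 11.7 against 8.97, 8.15 and 6.71 CPM, a log2 fold change of 0.58 (SE 0.12, adjusted p = 0.0028). The populations did not overlap for either gene. The share of all genes without overlap between these populations was not counted.

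BAK1, the effector that MCL1 and BCL-XL restrain, was at 64.7, 71.3 and 62.8 CPM in SUM159 ALDHbr and 48.2, 55.8 and 47.5 CPM in ALDHneg cells under DMSO, a log2 fold change of 0.39 (SE 0.07, adjusted p = 0.00137). BBC3 went the other way, at 6.58, 6.81 and 4.71 against 14.0, 11.7 and 8.38 CPM, with a log2 fold change of -0.91 (SE 0.21, adjusted p = 0.0048). Again neither gene's populations overlapped. The other 6 members lay between -0.12 and 0.09.

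Under NIF the same 4 members were called in SUM159, beside 21.9% of all genes, at 0.35 for MCL1 (adjusted p = 0.00863), 0.44 for BCL2L11 (adjusted p = 0.0154), 0.31 for BAK1 (adjusted p = 0.00767) and -0.69 for BBC3 (adjusted p = 0.0267). BBC3 lost its call when ALDHbr NIF replicate 1 or 3 or ALDHneg NIF replicate 1 or 2 was left out (adjusted p 0.0506 to 0.118). BCL2L11 lost its call without ALDHbr NIF replicate 2 or ALDHneg NIF replicate 3 (adjusted p = 0.0519 and 0.0712). With the replicate block the 4 were called under DMSO, beside 36.0% of all genes, and 6 under NIF, beside 35.2%, where BCL2L2 (-0.22, adjusted p = 0.0114) and BAX (0.16, adjusted p = 0.0174) joined them.

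In SW620 edgeR called 0 of 10 members between ALDHbr and ALDHneg cells, under DMSO (beside 11.3% of all genes) or under NIF (beside 6.67%). Under DMSO 3 members had an unadjusted p under 0.05, and under NIF 1 did. BCL2L1 under DMSO, at -0.12, was called by DESeq2 (adjusted p = 0.0443) and with library-size scaling (-0.14, adjusted p = 0.0435). BAX under DMSO, at 0.20 (adjusted p = 0.106), was called without the library that stood apart (0.28, adjusted p = 0.00217). MCL1, which was called in SUM159, was at 0.02 (95% interval -0.09 to 0.13) in SW620 under DMSO.

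**Figure D4:**
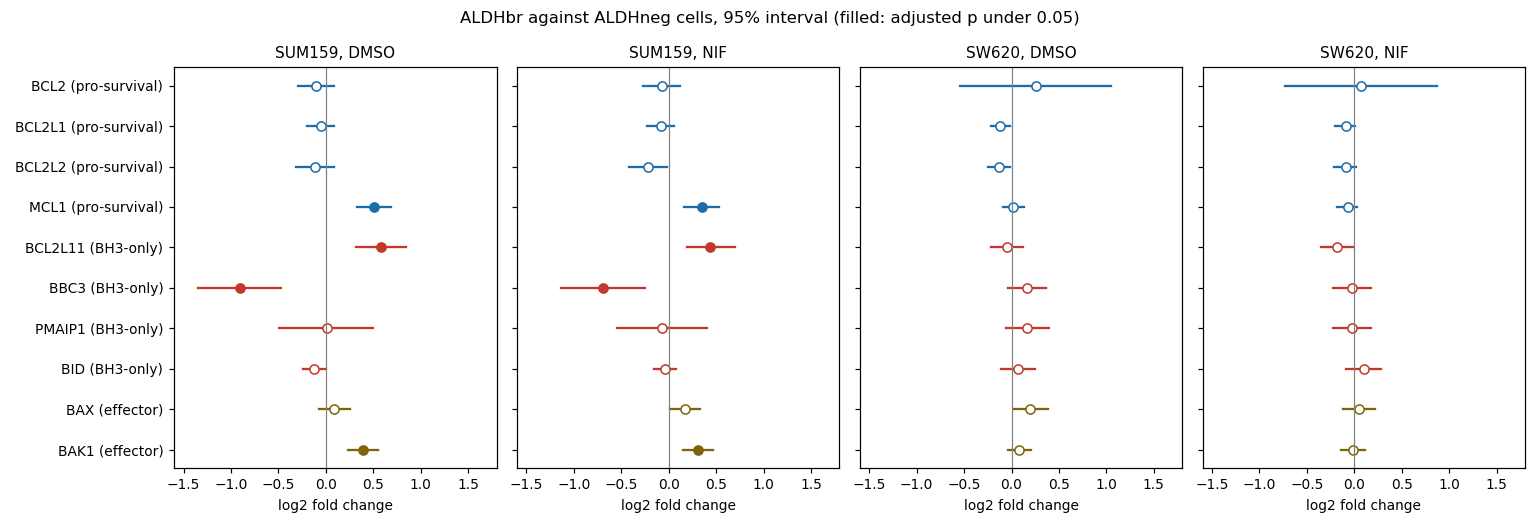
Log2 fold change of each BCL2 family gene, ALDHbr against ALDHneg cells, with its 95% interval from the edgeR fit of the line, under DMSO and NIF in both lines (blue pro-survival, red BH3-only, brown effector), filled where the adjusted p was under 0.05. In SUM159, MCL1, BCL2L11 and BAK1 lie above 0 and BBC3 below 0 under both treatments, at 0.51, 0.58, 0.39 and -0.91 under DMSO, and no point is filled in SW620.

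Between the lines, 9 of 10 members differed under DMSO in each population, beside 81.3% of all genes in ALDHbr and 81.2% in ALDHneg cells. BCL2 differed most, with 10.5 to 11.7 CPM in SUM159 and 0.337 to 0.588 CPM in SW620 ALDHbr cells, and a log2 difference of 4.44 (SE 0.19, adjusted p = 8.28e-17), or 4.79 in ALDHneg cells. MCL1 was higher in SUM159 by 1.12 in ALDHbr and 0.63 in ALDHneg cells, BCL2L2 by 0.53 and 0.51, and BAK1 by 0.54 and 0.23. BCL2L1 was lower in SUM159, at -0.69 and -0.76, as were BCL2L11 at -1.13 and -1.76, BBC3 at -1.56 and -0.49, BID at -0.56 and -0.37, and BAX at -0.88 and -0.77. In ALDHbr cells 3 of 4 pro-survival genes were thus higher and 4 of 6 pro-death genes lower in SUM159, with medians of 0.83 and -0.72 beside 0.05 over all genes, of which 41.7% were called higher and 39.6% lower. In ALDHneg cells the medians were 0.57 and -0.43 beside 0.07, with 42.7% of all genes called higher and 38.5% lower. PMAIP1 was not called, at 0.03 (95% interval -0.38 to 0.44) and 0.19 (-0.22 to 0.60). Library-size scaling shifted the median of all genes by 0.15 in ALDHbr and 0.17 in ALDHneg cells, and with it BBC3 in ALDHneg cells lost its call (-0.32, adjusted p = 0.0742), as it did without SUM159 ALDHneg DMSO replicate 3 (-0.29, adjusted p = 0.0949). BAK1 there lost its call without SUM159 ALDHneg DMSO replicate 2 (0.15, adjusted p = 0.0517).

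Among the other genes of the pathway, the caspases and the apoptosome were counted first, as the machinery downstream of BAX and BAK1. For SW620 the counts of all the lists stand beside 43.3% of all genes called in ALDHbr cells (21.4% higher, 21.9% lower) and 45.1% in ALDHneg cells (22.3% and 22.7%), and nothing particular to a list is read from them. In SW620, 4 of 10 were lower under NIF and 0 higher in both populations, with APAF1, the apoptosome's scaffold, at -0.43 (adjusted p = 0.0153) in ALDHbr and -0.74 (adjusted p = 0.000324) in ALDHneg cells. Of 8 IAP proteins and antagonists tested in SW620 ALDHbr cells, 2 were higher and 2 lower, with BIRC2 at 0.48 and BIRC5, which encodes survivin, at -0.81 (adjusted p = 6.73e-07). Of 10 death receptors and adaptors tested, 5 were higher and 0 lower in ALDHbr cells and 6 higher and 1 lower in ALDHneg cells, led by TNFRSF10D, a decoy receptor for TRAIL, at 0.88 and 0.76. Of 9 other BCL2 family genes tested in ALDHbr cells, 2 were higher and 2 lower, with BCL2L13 at 0.19 and the BH3-only gene BMF at -0.42. The other two called had larger folds at low levels, below the level set for naming, and are named after their values were seen. They were BCL2L10, at 1.54 (adjusted p = 0.00379) on 6 to 23 counts per ALDHbr library, and BCL2L14, at -1.41 (adjusted p = 0.000175) on 22 to 112 counts. Of 4 genes for MCL1 protein turnover, BTRC alone was called, at 0.25 in ALDHbr and 0.38 in ALDHneg cells.

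In SUM159 each of these lists gave 0 or 1 call in each direction, beside 3.16% of all genes in ALDHbr and 3.30% in ALDHneg cells. Of the caspase and apoptosome genes, 0 of 10 were called in either population by edgeR or by DESeq2. At an unadjusted p under 0.05 there were 0 in ALDHbr and 1 in ALDHneg cells. BMF, another BH3-only gene, was lower under NIF in both populations, from 2.44 ± 0.346 to 1.07 ± 0.262 CPM in ALDHbr cells (log2 fold change -1.17, adjusted p = 0.00895) and from 5.88 ± 0.424 to 2.20 ± 0.483 CPM in ALDHneg cells (-1.41, adjusted p = 0.0012). BIRC3, an inhibitor of apoptosis that acts in TNF signalling, fell in both as well, from 185 ± 16.7 to 107 ± 13.6 CPM in ALDHbr cells (-0.78, adjusted p = 0.000543) and from 225 ± 29.8 to 113 ± 1.18 CPM in ALDHneg cells (adjusted p = 7.57e-05). TNFRSF10A, a TRAIL death receptor, was higher at 0.33 and 0.38, and BNIP3, a mitophagy receptor of the family, was at 0.54 in ALDHneg cells (adjusted p = 0.00667) and 0.36 in ALDHbr cells (adjusted p = 0.0580), and was called higher in both with the replicate block (adjusted p = 5.54e-05 and 0.00345).

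Transcription factors described as regulators of the members came last. Of 14 in SW620, 8 were higher and 2 lower under NIF in each population, against shares of 21.4% and 21.9% of all genes in ALDHbr and 22.3% and 22.7% in ALDHneg cells. DDIT3, which encodes CHOP, went from 11.0 ± 1.41 to 34.7 ± 2.11 CPM in ALDHbr cells (log2 fold change 1.66, adjusted p = 7.38e-08), ATF3 was at 1.35 and ATF4, the factor of the integrated stress response, at 0.74 (adjusted p = 4.16e-06). CDKN1A, which encodes a cell cycle inhibitor, rose in ALDHbr cells from 26.5 ± 2.41 to 99.6 ± 4.18 CPM (1.91, adjusted p = 4.11e-10), whereas MDM2 was at 0.05 (adjusted p = 0.535). In SUM159 ALDHbr cells FOXO1 alone of the 14 factors was called, at -0.33, and ATF4 and DDIT3 were at 0.26 and 0.24 (adjusted p = 0.125 and 0.394). CDKN1A was at 0.16 and MDM2 was lower, at -0.33 (adjusted p = 0.0439). With the replicate block 5 of the 14 factors were called in SUM159 ALDHbr cells, beside 13.3% of all genes. ATF4 was called higher (adjusted p = 0.00528), and the others, FOXO1 among them, were called lower. The part of these genes in the members' changes was not tested.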

How the data were processed

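Whole-number read counts per gene, without normalization, were deposited by the authors for 28307 genes in 24 libraries. Total RNA was taken through the Illumina Stranded Total RNA Prep. The submitters' processing notes name FastQC, STAR and GRCh38, and the counter, settings and annotation are not given in the sources used here, so reads shared between overlapping genes are of unknown handling. Mitochondrially encoded genes are not among the rows, and no check of RNA quality by their share was made.

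Differences were tested with edgeR 4.0.16 under R 4.3.3 (filterByExpr, TMM, quasi-likelihood F test, Benjamini-Hochberg over all genes, threshold 0.05), each line apart on 12 libraries in 4 groups, and lines compared in a fit of all 24 libraries. Log2 CPM used a prior count of 2. CPM per kb used canonical transcript lengths of a GENCODE annotation on GRCh37, an older build than that of the files. All 10 members were named in each comparison of NIF with DMSO, and elsewhere those called. From the other lists, counts were given for those reported, with the 2 highest and 2 lowest called genes of a mean log2 CPM of at least 1 open to naming, and CDKN1A, MDM2, ATF4 and DDIT3 always. Some genes of these lists, and 1 list, are not reported here. For the other lists, only the block and, for counts, DESeq2 were run. The members and the lists, which were written from general knowledge, were chosen with earlier results of these data known.

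Same-numbered SUM159 libraries deviated together (correlation 0.182 to 0.451, above 0.1 in 12 of 12 pairs), so their numbers were taken as pairs of the independent experiments. In SW620 they did not. Calls and fold changes of the members and counts over all genes were recomputed with a replicate block (except for the lines under DMSO), with DESeq2 1.42.0, without a filter or with at least 10 counts in every library, under library-size scaling or RLE factors, with only the groups compared, or all 24 libraries in the fit, and with each library left out in turn. The steps were tested on simulated counts. Intervals are 95% and rest on a spread estimated over all groups of the fit, at 3 libraries per group, and drawn toward that of other genes. They come from the fits without the replicate block, so they leave out the pairing in SUM159. Upstream sequences are those of RefSeq (GRCh38.p14).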

Additional observations from a re-analysis of the deposited data

Results flagged for a closer look

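The effect of NIF differed between the lines for members in both populations, by the test of the difference itself (edgeR, adjusted over all 16271 genes), given as SUM159 minus SW620. In ALDHbr cells it was -0.51 for BCL2L1, -0.38 for BCL2L2, -0.46 for MCL1 and 0.52 for BID on the log2 scale, beside 23.1% of all genes. In ALDHneg cells it was -0.47 for BCL2L1, -0.40 for MCL1, -0.70 for BBC3 and 0.46 for BID, beside 22.4% of all genes. BCL2L1, MCL1 and BID differed in both populations. In SW620 every NIF library lay above every DMSO library for BCL2L1, BCL2L2, MCL1 and BBC3, and below for BID. NIF calls in SW620 covered 43.3% of all genes in ALDHbr and 45.1% in ALDHneg cells. The share of all genes whose libraries separate in this way was not counted.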

How the results depend on the processing

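Over all comparisons and alternatives, 17 member calls were lost and 21 gained. Among members' NIF effects within a line, called or not, and called members elsewhere, 946 recomputed log2 fold changes kept their direction and their side of the threshold, and 17 changed sign, all in members that were not called. With the replicate block the members called went from 0 to 2 in SUM159 ALDHbr and from 0 to 1 in SUM159 ALDHneg cells. The share of all genes called went with it from 3.16% to 13.3% and from 3.30% to 13.2%. Without a filter on low counts the members called in SUM159 ALDHneg cells went to 1, which was PMAIP1 (0.61, adjusted p = 0.0464). Between SW620 ALDHbr and ALDHneg cells under DMSO the count went from 0 to 1 with DESeq2 and with library-size scaling (BCL2L1), and ran from 0 to 1 with single libraries left out (BAX, without ALDHbr DMSO replicate 2). Over all genes, the 1577 calls of that comparison went to 2187 with DESeq2 and to 5487 without that replicate. In SW620, where the numbers did not pair the libraries (correlations -0.278 to 0.214), the block changed no member call within the line. BCL2L11 in SW620 ALDHneg cells was called higher under NIF when only those groups entered the fit (0.15, adjusted p = 0.0225). The causes were not tested.

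With single libraries left out, the NIF effect in SUM159 ran from -0.14 to 0.21 for BBC3 and from -0.01 to 0.04 for BID in ALDHbr cells, and from -0.06 to 0.11 for MCL1 and from -0.04 to 0.09 for BAX in ALDHneg cells. In SW620 ALDHbr cells it ran from -0.06 to 0.10 for BCL2L11 and from -0.03 to 0.02 for BAK1. Library-size scaling turned BCL2L11 in SW620 ALDHbr cells to -0.02 and BAX in SW620 ALDHneg cells to -0.04, and no filter put BAK1 in SW620 ALDHbr cells at 0.00.

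Over all genes, the NIF calls in SUM159 went from 473 to 875 with DESeq2 and 1994 with the block in ALDHbr cells, and from 493 to 884 and 1970 in ALDHneg cells. With 1 library left out they ran from 222 to 322 in ALDHbr and from 192 to 584 in ALDHneg cells. The share of calls that were higher went from 51.1% to 61.4% with library-size scaling between SW620 populations under NIF, and from 46.7% to 59.1% for the NIF effect between lines in ALDHneg cells. A replicate block was not run for the lines under DMSO, since the numbers are nested in the line, and fits of only the groups compared were not run for differences between effects. Depth limits BCL2 in SW620, at 10 to 23 counts per library.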
